A study of Mus musculus with 4 samples.

Results

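*Ung*, its antagonist *Fam72a* and 4 further genes of DNA base removal (*Smug1*, *Tdg*, *Mbd4* and *Neil3*) were examined in cells of 4T1, an established line from a mouse mammary tumor, sorted for high or low mitochondrial membrane potential (MMP). All 6 genes were present among the 20197 genes measured. They were chosen by name, and *Ung* and *Fam72a* were picked because they differed at least 2-fold and in opposite directions between high and low MMP cells, so the values of these 2 genes are a description and were not tested. Wild-type 4T1 cells, all from one line, were stained with MitoSpy Red at 20 nM, whose uptake into mitochondria depends on their membrane potential, and the 5% with the strongest and the 5% with the weakest stain were collected. Each group had 2 samples, numbered 1 and 2, from 100000 cells each, with no treatment other than the dye and the sort.

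Uracil enters DNA when dUTP is used in place of dTTP during replication or when cytosine loses its amino group. Base excision repair begins with a DNA glycosylase that cuts the uracil from its sugar, after which an endonuclease, a polymerase and a ligase restore the strand. UNG is the main uracil glycosylase of replicating cells and has a nuclear and a mitochondrial form made from the same gene. FAM72A binds nuclear UNG and lowers its protein level, and is best known from antibody diversification in B cells, where this antagonism favors mutagenic repair of uracil.

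The sequences just before the starts of *Fam72a* and *Ung* are shown because these are the genes with opposite differences. Both are the 250 bases before a RefSeq transcript start on GRCm38.p6, plus strand, written in the direction of transcription. *Fam72a* lies at chr1:131527653-131527902 and the capitals mark CCAAT boxes, while *Ung* lies at chr5:114130185-114130434 and the capitals mark GC boxes (GGGCGG on either strand). The gene coordinates given below, from another annotation, start *Ung* at 114130386, inside this window. The GC box nearer the RefSeq start thus lies within that annotated gene.
Fam72a: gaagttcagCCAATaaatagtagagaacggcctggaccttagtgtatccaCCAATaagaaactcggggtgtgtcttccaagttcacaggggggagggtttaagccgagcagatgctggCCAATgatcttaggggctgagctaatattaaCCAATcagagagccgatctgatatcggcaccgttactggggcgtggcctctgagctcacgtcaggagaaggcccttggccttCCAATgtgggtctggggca
Ung: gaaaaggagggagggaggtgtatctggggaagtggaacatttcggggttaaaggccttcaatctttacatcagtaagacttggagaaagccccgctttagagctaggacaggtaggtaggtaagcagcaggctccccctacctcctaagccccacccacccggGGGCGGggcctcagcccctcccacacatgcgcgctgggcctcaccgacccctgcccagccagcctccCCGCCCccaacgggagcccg

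The *Fam72a* window held 5 CCAAT boxes as written, the first at 241 and the last at 19 bases before the start. Counted on both strands, at least 1 CCAAT was found in 33.8% of the 32851 RefSeq windows of this length and at least 5 in 0.213%. A match to TTTGAA, the core letters of the cell cycle genes homology region (CHR), lay on the opposite strand 38 bases into the *Fam72a* transcript, and 17.9% of windows extended by 50 bases past the start held such a match. The *Ung* window held no CCAAT and no TTTGAA but 2 GC boxes, which at least 16.7% of windows did. E2F-like letters (TTGGCGC, or with other central letters TTCCCGC, or likewise TTGCCGC, or otherwise TTCGCGC, on either strand), found upstream in 7.89% of windows, were not in the *Ung* or *Fam72a* windows. Of the 6 genes, *Mbd4* held such a match, which spanned its start, and it also had 2 CCAAT boxes upstream, against 1 each for *Tdg* and *Smug1* and 0 for *Neil3*. These motifs were chosen after the sequences had been seen, and a match of letters is not a measured binding site.

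The 4 libraries held 22591970 to 26395015 recovered reads. Epithelial markers (*Epcam*, *Cdh1*, *Krt7*, *Krt8*, *Krt18* and *Krt19*) were abundant in each library, with summed levels from 47117 to 65235 normalized reads. Of 6 immune markers 2 were listed, with a sum of 0.758 to 5.31, and of 4 endothelial markers 2 were listed, with a sum of 1.74 to 6.20. The fibroblast list summed to 328 and 367 in high MMP and 538 and 594 in low MMP cells, nearly all of it *Pdgfra*, while *Lum* was not listed. The high MMP samples differed from each other more than the low MMP samples did (chi-square per gene 43.2 against 9.08), and mitochondrial mRNAs took 1.27% of reads in high MMP 1 against 2.02% to 2.24% in the others. Values below are normalized reads, scaled so that each library sums to 20000000, and a difference is the log2(value + 1) of high MMP cells less that of low MMP cells.

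*Ung* (ENSMUSG00000029591, GRCm38 chromosome 5, 114130386 to 114139323, plus strand) had 306 normalized reads in high MMP 1, 167 in high MMP 2, 826 in low MMP 1 and 869 in low MMP 2. Both low MMP samples thus lay far above both high MMP samples. The mean was 237 ± 98.1 with high and 848 ± 30.3 with low MMP (SD, n = 2 each), or 3.58-fold more in low MMP cells, and the log2 difference was -1.90. The high MMP samples were themselves 1.83-fold apart, and their 95% Poisson intervals (277 to 337 and 145 to 192, counting error only) did not meet. The size of the difference therefore varied, at -1.43 in same-numbered pair 1 and -2.37 in pair 2. Of 9999 genes averaging 100 or more normalized reads, *Ung* had the lowest difference, which is a property it was chosen for. These are bulk samples, in which fewer cells that express a gene and less RNA per cell cannot be told apart, and the gene-level values do not separate the nuclear from the mitochondrial form.

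*Fam72a* (ENSMUSG00000055184, chromosome 1, 131527903 to 131539872, plus strand) had 224 normalized reads in high MMP 1, 222 in high MMP 2, 111 in low MMP 1 and 105 in low MMP 2. The groups were apart and the replicates nearly equal, in contrast to *Ung*. The mean was 223 ± 1.25 with high and 108 ± 3.80 with low MMP (SD, n = 2 each), which is 2.06-fold more in high MMP cells, with a log2 difference of 1.04. These SDs are smaller than counting error, since *Fam72a* had 295, 265, 127 and 119 reads in the 4 libraries and the interval of a single high MMP sample ran from 199 to 251. *Fam72a* ranked 13 from the top of the same 9999 genes.

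**Figure D1:**
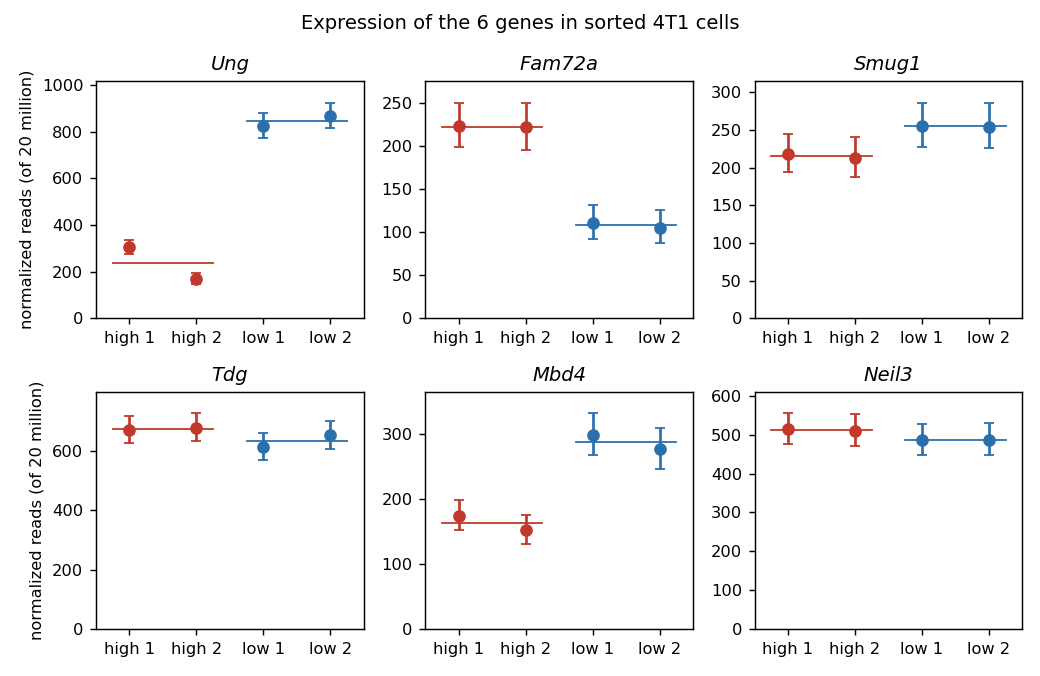
Normalized reads (y axis) of the 6 genes in the 4 libraries (x axis), with high MMP in red and low MMP in blue. Points are single libraries with 95% Poisson intervals of their reads and horizontal lines are group means. *Ung* sits at 167 and 306 in high against 826 and 869 in low MMP, *Fam72a* at 222 and 224 against 105 and 111, and *Mbd4* at 151 and 174 against 276 and 298.

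With *Fam72a* at 1.01 in pair 1 and 1.07 in pair 2, this gene was just inside the 2-fold rule. *Mbd4*, at -0.78 and -0.86, was the nearest of the others outside it. Across the table, 0.639% of the 17694 genes averaging 1 or more were 2-fold higher and 1.03% were 2-fold lower in high MMP cells in both pairs. For averages from 100 upward these shares were 0.1% and 0.04%, the latter being 4 genes with *Ung* among them.

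**Figure D2:**
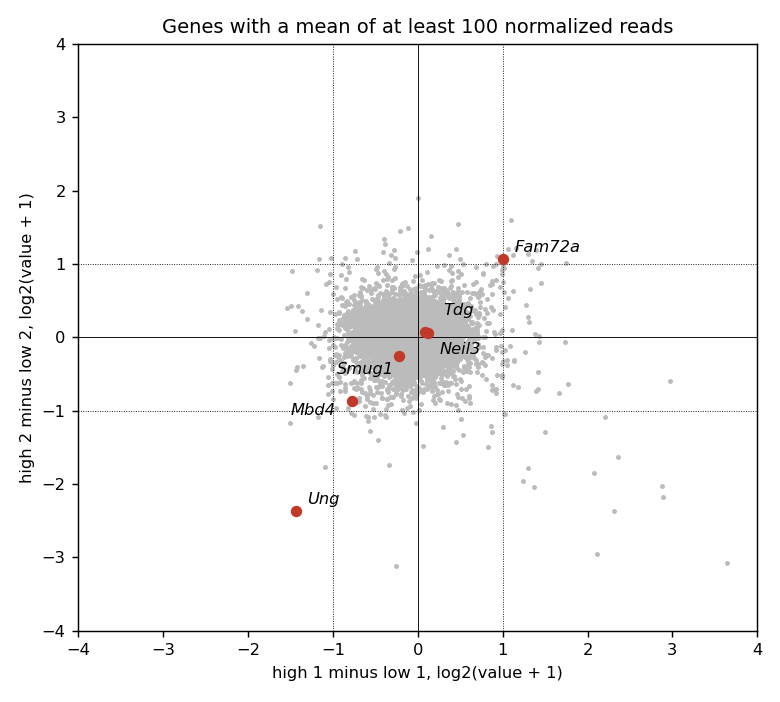
Log2 difference of high minus low MMP in pair 1 (x axis) and pair 2 (y axis) for the 9999 genes averaging 100 or more normalized reads (grey) and the 6 genes (red), with dotted lines at 2-fold. *Ung* is at the lower left (-1.43, -2.37), *Mbd4* at -0.78 and -0.86, *Fam72a* just past the upper right corner of the 2-fold lines, and *Tdg* and *Neil3* near 0.

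The 4 genes that the rule did not use were tested over all genes with limma. No gene of the table passed at an adjusted p under 0.05 (percent called 0.0, against 3.95% higher and 6.01% lower in high MMP cells at an unadjusted p under 0.05), and so none of these 4 did. Of the 4, 1 had an unadjusted p under 0.05. This gene was *Mbd4*, which encodes a glycosylase that binds methylated CpG and removes thymine or uracil paired with guanine. *Mbd4* (ENSMUSG00000030322, chromosome 6, 115840697 to 115853371, minus strand) had 174 and 151 normalized reads in high MMP and 298 and 276 in low MMP cells. Both high MMP samples lay below both low MMP samples, and the Poisson intervals of the nearest pair, 152 to 198 and 246 to 309, were apart. The log2 difference was -0.82 (SE 0.13, 95% interval -1.17 to -0.47), with a limma adjusted p of 0.472. The count models gave it an adjusted p of 0.580 in edgeR and 0.0682 in DESeq2, so it passed in neither. DESeq2 called 0.985% of the 11974 genes it tested (0.676% higher and 0.309% lower in high MMP cells). In edgeR with no block 0.0% were called. With the replicate number as a block 0.525% were called (0.213% lower), and with crossed numbers 3.63% (1.89% lower). *Mbd4* was among the calls with either block. Whether same-numbered samples belong together is not stated. A noncoding gene on the other strand of *Mbd4*, *Gm44206*, had 9.85 and 10.9 in high and 21.8 and 13.3 in low MMP cells, and whether the counting used strand is not stated.

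*Smug1*, which encodes a uracil glycosylase that also removes hydroxymethyluracil, had 218 and 213 normalized reads in high MMP and 255 and 254 in low MMP cells. Its samples were ordered like those of *Ung*, with both high MMP values below both low ones, but the gap was small. The log2 difference was -0.24 (SE 0.10, 95% interval -0.51 to 0.03), with a limma adjusted p of 0.562.

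*Tdg* encodes the thymine DNA glycosylase, which removes thymine or uracil paired with guanine and the oxidized forms of methylcytosine. It had 670 and 678 normalized reads in high MMP and 614 and 652 in low MMP cells, or 0.09 higher on the log2 scale (SE 0.08, 95% interval -0.13 to 0.31, limma adjusted p 0.811). The groups did not overlap, but *Tdg* shares sequence with other genes, among them the processed pseudogene *Gm9855*, and how reads that fit both were counted is not stated. Of the 5656 different stretches of 75 bases in the *Tdg* transcripts, 33.8% also occur in transcripts of other genes, whereas 0.0% of those of *Ung*, *Fam72a* and *Smug1* do. *Gm9855* itself had 621 and 557 in high and 574 and 603 in low MMP cells, and the sum of both genes was 1290 and 1235 in high and 1187 and 1254 in low MMP cells, where the groups overlapped. The level of *Tdg* is thus uncertain.

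*Neil3*, whose product removes oxidized bases and opens crosslinks between DNA strands at the replication fork, had 515 and 510 normalized reads in high MMP and 486 and 487 in low MMP cells. The high MMP values were above the low ones by less than the counting error of 1 library (447 to 529 in low MMP 2). The difference was 0.08 (SE 0.08, 95% interval -0.14 to 0.29), with a limma adjusted p of 0.855. In all, the samples of *Smug1* and *Mbd4* did not overlap with low MMP on top, and those of *Tdg* and *Neil3* with high MMP on top. Over all genes 24.5% did not overlap with high MMP cells lower and 13.5% with high MMP cells higher (22.7% and 14.9% of those averaging 100 or more), and quantile normalization turned these 4940 and 2723 genes into 3421 and 3312.

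To compare levels between genes, normalized reads were divided by the length of the annotated exons. In low MMP cells *Ung* had the highest level of the 6, with 151 and 159 normalized reads per kb, followed by *Tdg* (114 and 121), *Neil3* (87.6 and 87.7), *Mbd4* (56.5 and 52.3), *Fam72a* (50.5 and 48.1) and *Smug1* (41.6 and 41.4). No neighbors in this order overlapped. The place of *Tdg* is uncertain, since with the reads of *Gm9855* added it would stand at 221 and 233, above *Ung*. In high MMP cells *Tdg* (125 and 126), *Fam72a* (102 and 101) and *Neil3* (92.8 and 91.9) came first and did not overlap. *Ung*, at 56.0 and 30.6, then overlapped with *Smug1* (35.5 and 34.7) and *Mbd4* (32.9 and 28.7). Per kb, *Ung* was 2.99 and 3.31 times *Fam72a* in low MMP 1 and 2. It was 0.549 and 0.302 times *Fam72a* in high MMP 1 and 2. Without division by exon length, these ratios were 7.46 and 8.25 in low MMP and 1.37 and 0.755 in high MMP. The order of these 2 genes in high MMP 1 thus depends on the exon length used. Other places depend on it as well. Undivided, *Neil3* (515 and 510) stood above *Fam72a* (224 and 222) in high MMP cells. In low MMP cells *Smug1* (255 and 254) then stood above *Fam72a* (111 and 105). A lower ratio of *Ung* to *Fam72a* in high MMP cells follows from how these 2 genes were chosen and is a description.

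Since *Ung* was chosen for its difference, its share among the uracil and thymine removing glycosylases is a description. *Ung* took 41.5% (Wilson 95% interval 39.4% to 43.5%) of the reads of *Ung*, *Smug1*, *Tdg* and *Mbd4* in low MMP 1 and 42.4% (40.4% to 44.4%) in low MMP 2. It took 22.4% (20.5% to 24.4%) in high MMP 1 and 13.8% (12.1% to 15.7%) in high MMP 2, where *Tdg* took 49.0% and 56.0%. The level of *Tdg* is uncertain, which these intervals do not cover. With the reads of *Gm9855* (658 in low MMP 1 and 681 in low MMP 2) added to *Tdg*, each *Ung* share would be lower. The summed level of the 4 was 249 and 220 normalized reads per kb in high and 363 and 374 in low MMP cells. Without *Ung* it was 193 and 190 in high and 212 and 215 in low MMP cells.

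**Figure D3:**
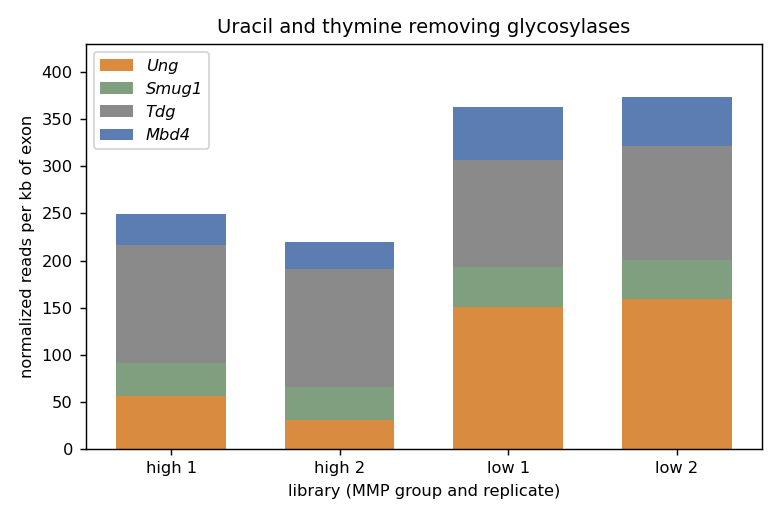
Normalized reads per kb of exon (y axis) of *Ung*, *Smug1*, *Tdg* and *Mbd4*, stacked, in each library (x axis). The stacks reach 249 and 220 in high MMP and 363 and 374 in low MMP cells, and the *Ung* part is 56.0 and 30.6 against 151 and 159. The *Tdg* part leaves out the reads counted for *Gm9855*.

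Among the other DNA glycosylases, which handle oxidized and alkylated bases, 0 of 7 genes (with *Neil3* counted again) passed in limma. In this list 1 gene, lower in high MMP cells, had an unadjusted p under 0.05, against 6.01% of all genes. The median difference was -0.22, against -0.04 over all genes. Without high MMP 1 the median was -0.11, and without low MMP 1 it was -0.14. In 3 of the 7, against 24.5% of all genes, both high MMP samples were lower: *Mpg*, the alkyladenine glycosylase (365 and 351 in high, 422 and 445 in low MMP cells, difference -0.27), *Mutyh*, which removes adenine opposite oxidized guanine (-0.27), and *Nthl1* (-0.22). *Ogg1*, the main glycosylase for oxidized guanine, had 346 and 326 in high and 352 and 292 in low MMP cells, and *Neil1* 133 and 164 against 195 and 161. *Neil2* had between 0 and 4.18 normalized reads, too few to compare.

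The steps that follow base removal split by route. Replacement of a single nucleotide uses an endonuclease (*Apex1*), polymerase beta (*Polb*) and a ligase complex (*Xrcc1*, *Lig3*), with *Parp1* and *Parp2* as sensors of the nick. Of 14 such genes 0 passed and 0 had an unadjusted p under 0.05, and the median difference was -0.03. Groups overlapped in 11 of the 14, against 12534 of all 20197 genes. The largest differences of this list were 0.17 for *Aplf*, -0.14 for *Parp2* and 0.14 for *Aptx*, with limma adjusted p-values of 0.788, 0.788 and 0.855.

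Long-patch repair shares its clamp, clamp loader, polymerases, flap nuclease and ligase with DNA replication. Of its 14 genes 0 passed in limma, while 8 had an unadjusted p under 0.05, all lower in high MMP cells. Over all genes 6.01% were lower at that threshold. Both high MMP samples lay below both low MMP samples in 11 of the 14 (9 or 10 after other scalings), against 24.5% of all genes, and the median difference was -0.30. The largest differences were those of *Rfc3*, a clamp loader subunit (922 and 721 in high, 1234 and 1283 in low MMP cells, -0.63, SE 0.14), *Lig1*, the replicative ligase (2614 and 2397 against 3509 and 3633, -0.51, SE 0.09), and *Pcna*, the clamp that UNG binds at the fork (5294 and 4187 against 6325 and 6612, -0.46, SE 0.14). All 3 had a limma adjusted p of 0.472. DESeq2 and edgeR with no block or the replicate block called 0 of the 14. With crossed numbers edgeR called 4 lower (these 3 and *Pold1*, a polymerase subunit), against 1.89% of all genes.

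Mismatch repair factors can also act on uracil paired with guanine. All 5 genes of this list had high MMP samples below the low MMP samples (4 of 5 after each of 3 other scalings), against 24.5% of all genes. In limma 0 passed and 2 were lower at an unadjusted p under 0.05, against 6.01% of all genes. The median difference was -0.32, and -0.17 without high MMP 2. *Msh6*, which takes part in recognizing the mismatch, had 2692 and 2652 in high and 4293 and 4316 in low MMP cells (-0.69, SE 0.07, limma adjusted p 0.472). It was called by DESeq2 (adjusted p 0.00143) and by edgeR with crossed numbers, but not by edgeR with no block or with the replicate block, where the smallest adjusted p of this list was 0.524 and 0.124. The exonuclease *Exo1* differed by -0.37 (SE 0.07).

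**Figure D4:**
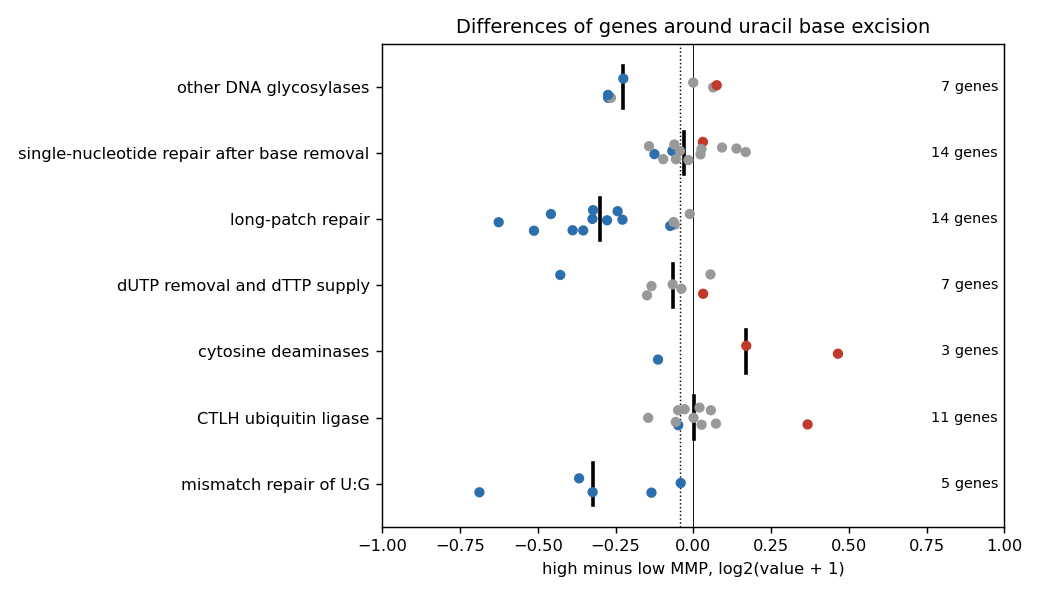
Log2 difference of high minus low MMP (x axis) for the genes of 7 lists (rows), 1 point per gene, blue where both high MMP samples lay below both low MMP samples, red where both lay above and grey where the groups overlapped. Black bars are list medians (-0.30 for long-patch repair, -0.32 for mismatch repair and -0.03 for single-nucleotide repair) and the dotted line is the median of all genes, -0.04.

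Genes that set how much uracil reaches DNA had small differences. *Dut*, which destroys dUTP, had 2632 and 2144 normalized reads in high and 2468 and 2810 in low MMP cells, and *Tyms*, which makes the precursor of dTTP, had 2262 and 1734 against 1900 and 1911. Of the 7 genes of dUTP removal and dTTP supply 0 passed and 0 had an unadjusted p under 0.05, with a median of -0.07. This median was -0.18 without high MMP 1 and 0.0074 without high MMP 2, so it has no stable direction. *Tk1*, *Dtymk*, *Shmt1* and *Dctd* lay between -0.13 and 0.03. Among the cytosine deaminases, which create uracil, *Apobec3* had 952 and 871 in high and 959 and 1012 in low MMP cells, and *Apobec1* had 87.1 and 82.0 against 70.6 and 79.7. The limma adjusted p was 0.784 for *Apobec3* and 0.833 for *Apobec1*.

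FAM72A is known to bring UNG to the CTLH ubiquitin ligase. Of its 11 genes 0 passed in limma and the median difference was 0.00. Groups overlapped in 9 of the 11, against 12534 of all 20197 genes. The exception with higher values in high MMP cells was the scaffold subunit *Armc8*. It had 907 and 896 in high and 674 and 724 in low MMP cells (0.37, SE 0.08, limma adjusted p 0.472). *Armc8* was the 1 gene of this list with an unadjusted p under 0.05, against 3.95% of all genes higher. Of the count models, only edgeR with crossed numbers called it. *Rmnd5a* differed by -0.14 and *Rmnd5b* by 0.07.

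The neighbors on the chromosome did not share one pattern. *Srgap2* is divergent from *Fam72a*, with 550 bases between the annotated genes, and had 1562 and 2042 in high and 1667 and 1435 in low MMP cells (0.21, SE 0.17, limma adjusted p 0.790). Its groups overlapped. On the other side, *Avpr1b* had 0 or 1 read per library. *Alkbh2*, which reverses DNA alkylation damage and is divergent from *Ung* at 2167 bases, had 182 and 170 in high and 253 and 223 in low MMP cells (-0.43, SE 0.13, limma adjusted p 0.472). *Acacb*, on the far side of *Ung*, differed by -0.26 (SE 0.17, limma adjusted p 0.734).

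Over the 4 libraries, the genes averaging 100 or more normalized reads whose centered log2 values lay nearest to those of *Fam72a* were *Kif18a*, *Aurka*, *Kif11*, *Ccnb1* and *Top2a*, at a root-mean-square distance of 0.06 to 0.09 log2 units. All are known from mitosis, as kinesins, a kinase, a cyclin and a topoisomerase. *Kif18a*, for example, had 1096 and 1071 in high and 593 and 545 in low MMP cells. The genes nearest to *Ung* were farther away. *Cdc6*, which loads the replicative helicase, was nearest at 0.27, with 1171 and 829 in high and 2507 and 2832 in low MMP cells, and it shared with *Ung* the lower value in high MMP 2. *Lpin1*, *Dscc1*, *Neat1* and *Gm21781* followed at 0.49 to 0.52. These distances describe 4 libraries and carry no test.

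**Figure D5:**
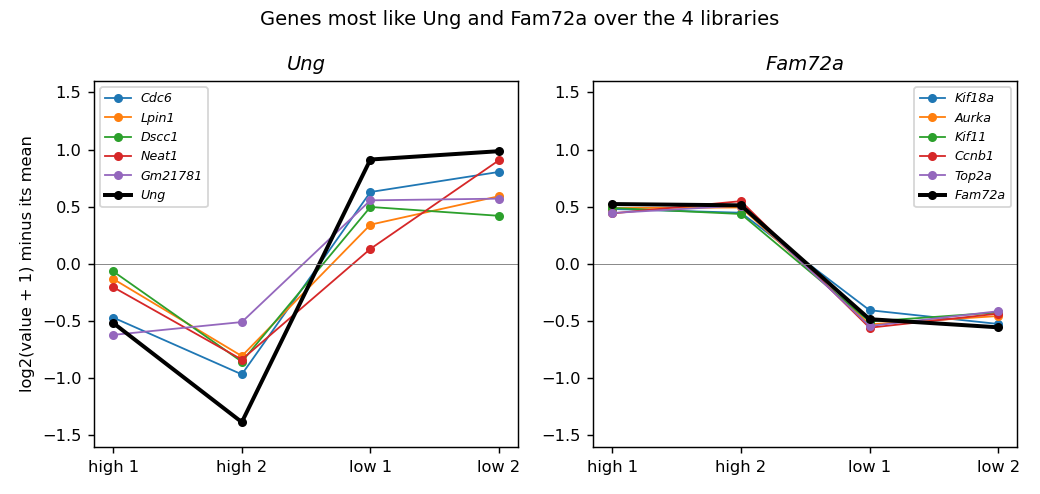
Log2(value + 1) minus the mean of the gene (y axis) in the 4 libraries (x axis) for *Ung* (left, black) and *Fam72a* (right, black) with the 5 genes nearest to each. Lines only connect the points of a gene, since libraries have no order. The *Fam72a* set lies within 0.09 log2 units of *Fam72a* on average, while the *Ung* set is nearest with *Cdc6* at 0.27.

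Markers of cell cycle phase differed between the same samples. Of 42 S-phase genes other than *Ung*, 30 had both high MMP samples below both low MMP samples and 1 above, against 24.5% and 13.5% of all genes, with a median difference of -0.33. Of 54 G2/M genes 45 were above and 1 below, against the same 13.5% and 24.5%, with a median of 0.32. In limma 0 genes of either list passed, and 22 S-phase genes (all lower) and 30 G2/M genes (all higher) had an unadjusted p under 0.05, against 6.01% of all genes lower and 3.95% higher. DESeq2 called 7 S-phase genes, all lower (0.309% of all genes tested), and 18 G2/M genes, all higher (0.676%). In edgeR 0 were called with no block, 5 S-phase genes (lower) and 11 G2/M genes (higher) with the replicate block, and 17 and 27 with crossed numbers. Over all genes the replicate block called 0.213% lower and 0.312% higher, and crossed numbers 1.89% and 1.74%. The part of cell cycle phase in the values of *Ung*, *Fam72a* and *Mbd4* was not tested.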

How the data were processed

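The mRNA of 4 samples of sorted 4T1 cells (200 ng per library) was sequenced for 75 cycles. The authors aligned reads to the mouse transcriptome (GRCm38/mm10) with STAR (the submitters' processing notes also name HTSeq), normalized to library size and filtered genes by the number of samples expressing them. Versions, annotation release and strand setting are not given in the sources used here. The deposited values are thus a normalized signal per gene, and all (100.0%, tolerance 0.02 reads) were whole multiples of 1 read. Symbols came from GENCODE M21 (19993 of 20197 identifiers), promoters from RefSeq (GRCm38.p6).

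Log2(value + 1) was tested with limma 3.58.1 in R 4.3.3 (eBayes with trend, group as factor, Benjamini-Hochberg over all genes, threshold 0.05). Alternatives were other pseudocounts, scalings and filters, a replicate block, leaving out samples, and edgeR 4.0.16 and DESeq2 1.42.0 on recovered reads. The scripts were tested on simulated data. Cell cycle lists are those of Seurat 5.3.0. The genes and lists were chosen with earlier results of these data known. Named were the 6 genes, 3 short lists in full, the 3 largest differences (mean of at least 10) of each other list, neighbors, and the 5 nearest patterns (mean of at least 100). Some genes that this rule names are not reported here. The labels do not say that samples came from separate cultures, while the paper counts the replicates of this comparison as independent experiments or tumors. The p-values measure the spread between these samples, and how much of it is technical is not known. Poisson and Wilson intervals cover counting error only.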

Additional observations from a re-analysis of the deposited data

How the results depend on the processing

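The number of genes called was 0 in limma with each pseudocount, scaling, filter, left-out sample and block, and 0 in edgeR without a block (where 1423 had an unadjusted p under 0.05), but 118 in DESeq2 (0.985% of genes tested). Whether same-numbered samples came from one sort is not stated. Their deviations had a correlation of -0.421 across 12902 genes. This compares only the replicate difference of each group and cannot settle the pairing. In edgeR the replicate block gave 106 calls (0.525%) and a crossed block, chosen after seeing the data, 733 (3.63%). The crossed block called 1 gene each of the mismatch repair, CTLH and dUTP lists and 4 of long-patch repair, where the replicate block called 0. *Mbd4* was among both, at -0.79 (adjusted p 0.0422) and -0.78 (adjusted p 3.157e-06). Over its 17 alternatives its adjusted p ran to 0.900. *Smug1*, *Tdg* and *Neil3* kept their direction and passed in none of theirs.

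*Ung* stayed between -2.33 and -1.47 when 1 sample was left out, and *Fam72a* between 1.00 and 1.07. *Fam72a* was 1.08 after median-of-ratios rescaling, 1.12 after quantile normalization, 1.07 after TMM, 1.08 in edgeR with no block, the replicate block or the crossed block, and 1.08 in DESeq2 (shifts larger than its very small replicate SD). The other members spanned -0.92 to -0.72 (*Mbd4*), -0.25 to -0.22 (*Smug1*), 0.05 to 0.13 (*Tdg*) and 0.07 to 0.08 (*Neil3*) with 1 sample left out.

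The median of single-nucleotide repair changed sign, to 0.012 (median-of-ratios), 0.0049 (quantile) and 0.008 (TMM), so no direction is given for it. With 1 sample left out the list medians ranged from -0.0474 to 0.0001 for it, -0.25 to -0.11 for other glycosylases, -0.33 to -0.23 for long-patch repair, -0.36 to -0.17 for mismatch repair, -0.0357 to 0.0331 for CTLH, -0.1794 to 0.0074 for dUTP removal and dTTP supply, -0.44 to -0.26 for S phase and 0.32 to 0.39 for G2/M. The deaminase median was 0.0285 at a mean of at least 10, where fewer genes were tested, against 0.17. The CTLH median was 0.0422 after median-of-ratios and 0.0382 after TMM, and the G2/M median 0.36 after both. The cause of these shifts was not tested. Low reads limit *Neil2* and *Avpr1b*, for which no difference was detectable at this depth.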
